A study of Mus musculus with 12 samples.

Results

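This account covers 8 genes of acute phase proteins in mouse renal cortex: the serum amyloid A genes Saa1, Saa2 and Saa3, the leucine-rich glycoprotein gene Lrg1, the protease inhibitor genes Serpina3n and Pzp, and the metal and hemoglobin carriers Cp (ceruloplasmin) and Hp (haptoglobin). They were chosen by name, each through the probe set that carries its symbol alone, and make up 8 of 19938 genes measured. Earlier results of these data were known when they were chosen. Their counts beside the shares of all genes are therefore a description and not independent evidence. Each of the 8 had 1 such probe set. The label was borne out in part: 7 of the genes were higher and Pzp was lower in injured than in healthy cortex of control mice.

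Acute phase proteins are plasma proteins whose production changes within hours of infection or tissue damage. The liver is their best known source, driven by interleukin 6 (IL-6) through STAT3, by interleukin 1 through NF-kB, and by C/EBP factors, while glucocorticoids acting through the glucocorticoid receptor (GR) often enhance the response. Epithelia, including injured kidney tubules, also transcribe some of these genes, and haptoglobin is known for binding free hemoglobin.

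The study hybridised 12 Affymetrix arrays, 3 in each of 4 groups. Nr3c1, the gene of GR, was floxed in every mouse. Control mice (nr3c1 flox/flox) had no Cre. GR-deficient mice (Pax8-Cre;nr3c1 flox/flox) also carried the Pax8-Cre transgene, which is active in renal tubular epithelium, so a genotype difference includes any effect of the transgene. Cells outside the tubule are meant to keep the receptor, but these bulk values cannot show which cells lost it. Mice with acute kidney injury (AKI) had received glycerol into muscle, which releases myoglobin, and were studied 24 hours later. Healthy mice were a second, uninjected cohort, so a difference with AKI includes any difference between cohorts. The sources used here give neither age nor sex. Replicates are numbered, but nothing says that they come from different mice, so the p-values reflect only the variation among these arrays, part of which may be technical. All levels are on the log2 scale of the deposited values, where a difference of 1 is a 2-fold change. Standard errors (SE) and adjusted p-values come from limma fitted to all 19938 genes, with Benjamini-Hochberg adjustment and a threshold of 0.05 (n = 3 arrays per group). The number of arrays limits the precision. In bulk cortex, fewer cells of a type and less RNA per cell cannot be told apart.

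The array medians lay between 7.001 and 7.09. Nr3c1 averaged 9.55 and 8.86 in healthy and injured control mice, and 8.17 and 7.98 in healthy and injured GR-deficient mice. Control AKI replicate 1 and GR-deficient healthy replicate 1 stood apart from their groups on principal components, and control AKI replicate 1 gave the lowest value of its group for 7 of the 8 genes. For the 8 genes, results are therefore also given without these arrays where a call moved. For the other gene lists this was done only in part, so counts given there without such a value may also shift.

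The promoter windows of 4 genes whose rise with AKI differed between the genotypes are shown first, because Saa1 and Saa2 are near-identical copies and because all 4 rose in injured control mice and were lower there with GR deficiency. Windows run from 250 bases before to 50 bases after the annotated start and come from RefSeq, build GRCm38.p6, which had an entry for 7 of the 8 genes. The Saa1 window (chr7:46742931-46743230, minus strand) and the Saa2 window (chr7:46751583-46751882, plus strand) were aligned end to end. They were identical at 287 of 299 aligned bases, with 12 substitutions and 2 unpaired bases, and capitals mark the bases that differ.
Saa1: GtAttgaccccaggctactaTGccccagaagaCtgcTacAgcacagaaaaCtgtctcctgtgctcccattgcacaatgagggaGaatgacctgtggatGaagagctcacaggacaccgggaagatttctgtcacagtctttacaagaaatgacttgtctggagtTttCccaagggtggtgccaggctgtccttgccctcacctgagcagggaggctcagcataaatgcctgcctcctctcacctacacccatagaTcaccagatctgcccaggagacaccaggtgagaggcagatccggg
Saa2: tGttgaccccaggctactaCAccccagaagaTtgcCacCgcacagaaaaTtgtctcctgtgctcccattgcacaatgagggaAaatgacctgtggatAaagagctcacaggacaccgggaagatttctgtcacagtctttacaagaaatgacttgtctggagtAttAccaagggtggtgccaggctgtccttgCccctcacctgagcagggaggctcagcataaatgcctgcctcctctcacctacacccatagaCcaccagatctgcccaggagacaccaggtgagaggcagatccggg
Identity to the Saa3 window was 65.1% of aligned bases for Saa1 and 62.8% for Saa2. With copies this alike, and with the genes sharing sequence beyond the promoter, the probe sets of Saa1 and Saa2 may each read RNA of both genes, so their split is uncertain.

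The windows of Serpina3n (chr12:104406458-104406757, plus strand) and Lrg1 (chr17:56121897-56122196, minus strand) were searched on both strands. The patterns were a loose form of the palindromic GR binding element, a C/EBP-like pattern (TTGCNNNAA), a STAT element (TTCNNNGAA) and the NF-kB consensus. Capitals mark the matches.
Serpina3n: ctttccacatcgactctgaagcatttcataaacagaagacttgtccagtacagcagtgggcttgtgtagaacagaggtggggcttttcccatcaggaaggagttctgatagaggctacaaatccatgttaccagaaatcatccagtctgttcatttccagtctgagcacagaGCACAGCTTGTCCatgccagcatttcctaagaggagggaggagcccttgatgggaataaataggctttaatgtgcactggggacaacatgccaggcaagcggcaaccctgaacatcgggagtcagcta
Lrg1: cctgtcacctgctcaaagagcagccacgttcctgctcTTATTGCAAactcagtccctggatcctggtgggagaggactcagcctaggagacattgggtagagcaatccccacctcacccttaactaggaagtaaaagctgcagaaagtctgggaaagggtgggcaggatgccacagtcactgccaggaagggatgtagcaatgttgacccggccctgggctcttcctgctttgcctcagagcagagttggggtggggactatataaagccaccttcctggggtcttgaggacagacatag
Serpina3n held a loose GR element starting at -78 from the start, a pattern found in 0.475% of 32851 promoter windows of this length. Lrg1 held the C/EBP-like pattern on the minus strand starting at -213, a pattern present in 9.56% of windows. None of the 4 patterns was in the Saa1, Saa2 or Pzp windows, and Saa3 held 1 C/EBP-like match at 36 bases after the start. Both windows listed for Cp held 1 C/EBP-like match. The C/EBP-like pattern has 1 free base more than the stretch TTGCACAA, which the Saa1 and Saa2 windows both hold. It cannot match such a stretch, so the lack of a match does not show that these windows lack a C/EBP site. These are matches of letters and say nothing of binding, and the GR half-site AGAACA, which the GR element can overlap, was in 19.0% of windows and in those of Serpina3n, Cp and Pzp.

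After AKI, control mice had more RNA of 7 of these 8 genes and less of Pzp, and all 8 passed the test. Of all genes tested, 28.7% passed in that comparison, 13.6% with a higher value and 15.1% with a lower one. The arrays of the 2 groups did not overlap for 7 of the 8 genes, beside 39.6% of all genes (19.3% higher, 20.4% lower). In GR-deficient mice 3 genes rose with AKI (Lrg1, Serpina3n and Cp) and Pzp fell, whereas the 3 serum amyloid A genes and Hp did not pass. Of all genes, 4.64% passed there, 3.29% higher and 1.35% lower. With AKI present, Saa1, Saa2, Saa3, Lrg1 and Serpina3n were lower in GR-deficient than in control mice, and 17.4% of all genes passed, 7.34% with a lower value; for 6 of the 8 genes these groups did not overlap, beside 32.8% of all genes. The response itself differed between the genotypes for the same 5 genes (the interaction, which 11.5% of all genes passed, 4.06% with a negative and 7.39% with a positive value). In healthy mice 0 of the 8 genes passed between the genotypes by limma, while 0.145% of all genes passed (0.0351% higher). At an unadjusted p below 0.05 there were 3 of the 8 (Serpina3n, Cp and Pzp), beside 10.7% of all genes. The healthy groups did not overlap for 4 of the 8 genes, beside 18.6% of all genes, and 2 of these 4, Lrg1 and Cp, were higher with GR deficiency, beside 8.08%. The median difference of the 8 genes with AKI was 1.29 in control mice and 0.43 in GR-deficient mice, beside medians of 0.0013 and -0.026 over all genes.

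**Figure D1:**
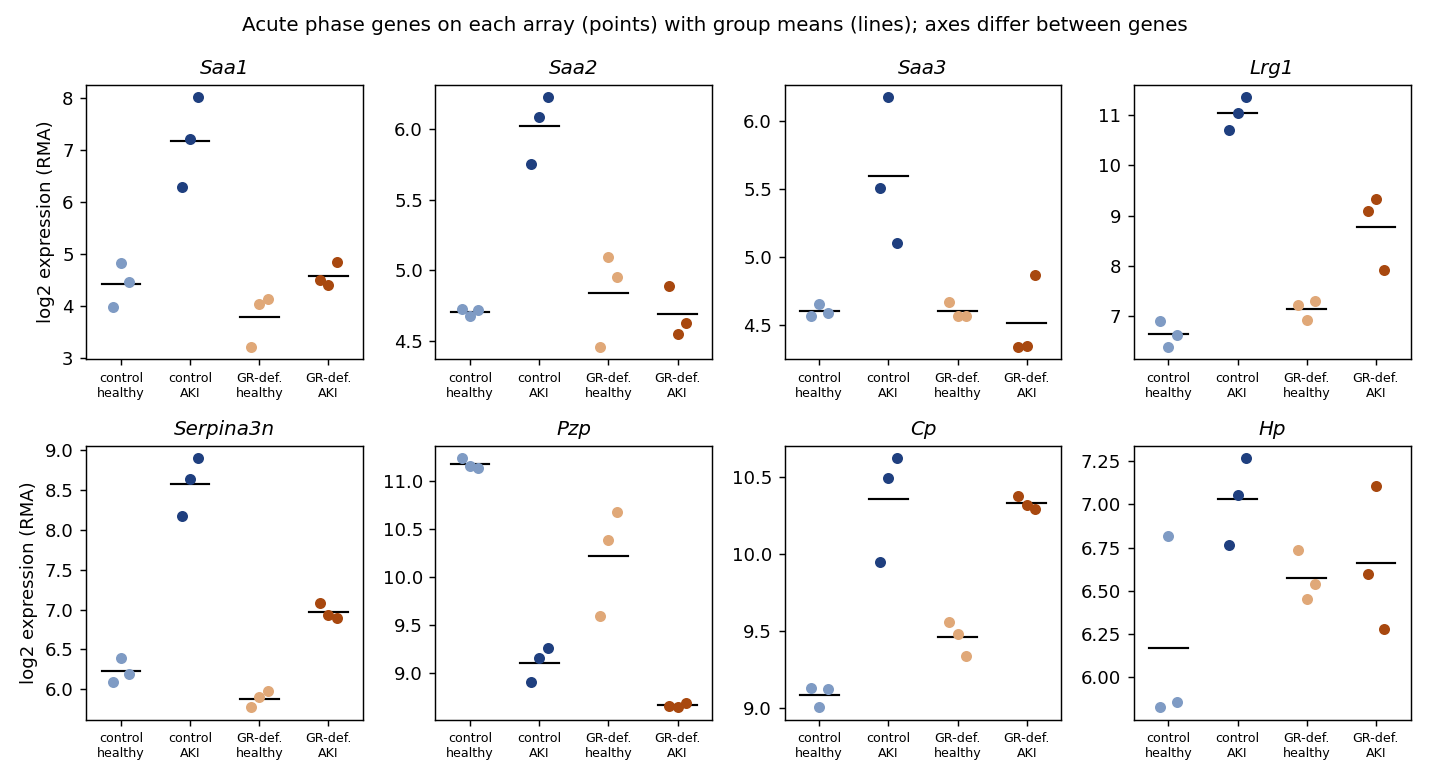
Log2 expression (RMA) of the 8 acute phase genes on each of the 12 arrays, as points, with the mean of each group as a line; the vertical axis has its own range in each panel. Saa1, Saa2, Saa3, Lrg1 and Serpina3n are highest on the 3 control AKI arrays without overlap, Cp is alike in both injured groups (10.35 and 10.33), and Pzp is highest in healthy control mice (11.18).

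Serum amyloid A proteins are small apolipoproteins that bind high-density lipoprotein and act on immune cells. In healthy control mice, Saa1 measured 3.99, 4.83 and 4.47. With AKI it measured 6.29, 7.21 and 8.01 in control mice and 4.51, 4.40 and 4.84 in GR-deficient mice, whose healthy arrays gave 3.22, 4.04 and 4.14. Every control AKI array thus exceeded every other array. The rise with AKI in control mice was 2.74 ± 0.35 (6.70-fold, adjusted p = 2.53e-05). The difference in GR-deficient mice was 0.78 ± 0.35 and did not pass (adjusted p = 0.246, 95% interval 0.039 to 1.53), although the arrays of its 2 groups did not overlap, as for 25.3% of all genes. In AKI, Saa1 was lower by 2.59 ± 0.35 in GR-deficient mice (adjusted p = 0.000128). The interaction was -1.96 ± 0.49 (adjusted p = 0.0182), and no longer passed without healthy control replicate 1 (adjusted p = 0.0538) or when all probe sets were tested (adjusted p = 0.068).

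Saa2, the neighbouring copy, was also highest in injured control mice. Its values were 4.73, 4.68 and 4.72 in healthy and 5.75, 6.08 and 6.22 in injured control mice. The GR-deficient arrays gave 4.46, 5.10 and 4.96 in healthy and 4.89, 4.55 and 4.63 in injured mice. Only the control AKI arrays stood clear, and the other 3 groups overlapped each other. Saa2 rose by 1.31 ± 0.16 with AKI in control mice (2.48-fold, adjusted p = 1.97e-05), against a difference of -0.15 ± 0.16 in GR-deficient mice (adjusted p = 0.677, 95% interval -0.50 to 0.20). It was lower by 1.33 ± 0.16 with GR deficiency in AKI (adjusted p = 5.88e-05), and the interaction was -1.46 ± 0.23 (adjusted p = 0.000973).

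Saa3, the form also made by macrophages and epithelia, measured 4.56, 4.66 and 4.59 in healthy and 5.51, 6.17 and 5.10 in injured control mice. In GR-deficient mice it measured 4.67, 4.57 and 4.57 when healthy and 4.34, 4.34 and 4.87 with AKI. The control AKI arrays were again above all others, and the remaining groups overlapped. It rose by 0.99 ± 0.21 in control mice (1.99-fold, adjusted p = 0.00202) and differed by -0.085 ± 0.21 in GR-deficient mice (adjusted p = 0.880). In AKI it was lower by 1.08 ± 0.21 with GR deficiency (adjusted p = 0.0022). The interaction of -1.07 ± 0.30 lay close to the threshold (adjusted p = 0.029) and passed in 11 of 20 alternative settings. It was lost without any 1 of the 3 healthy control arrays (adjusted p = 0.0676, 0.0506 and 0.0624), GR-deficient AKI replicates 1 or 2 (0.0727 and 0.0775), or GR-deficient healthy replicates 1 or 2 (0.0688 and 0.051), without both arrays that stood apart (0.0627), and when all probe sets were tested (0.0887). Outside the control AKI group, the 3 genes lay above only 1.4% to 14.6% of genes on each array, so their levels there are close to the bottom of the scale and their differences may be understated. On the control AKI arrays Saa2 (21.6% to 36.7%) and Saa3 (16.5% to 35.3%) were still dim, and Saa1 lay above 32.2% to 65.0% of genes.

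Lrg1 encodes a secreted glycoprotein made by hepatocytes, neutrophils and activated endothelium, known to modify TGF-beta signalling. It measured 6.91, 6.40 and 6.62 in healthy control mice and 10.70, 11.04 and 11.35 in injured ones. The GR-deficient arrays gave 7.23, 6.93 and 7.31 in healthy mice and 9.10, 9.33 and 7.91 with AKI. Its order ran from injured control over injured GR-deficient and healthy GR-deficient to healthy control mice, and no neighbours in that order overlapped. Lrg1 rose by 4.39 ± 0.28 in control mice (20.9-fold, adjusted p = 6.52e-08) and by 1.62 ± 0.28 in GR-deficient mice (3.08-fold, adjusted p = 0.00521), which is 37.0% of the control difference on the log2 scale. With AKI it was lower in GR-deficient mice by 2.25 ± 0.28 (4.77-fold, adjusted p = 7.48e-05). In healthy mice the difference of 0.51 ± 0.28 pointed the other way and did not pass (adjusted p = 0.559). The interaction, -2.76 ± 0.40 (adjusted p = 0.000589), was the sixth most negative of all genes. GR-deficient AKI replicate 3, the array with the least Lrg1 of its group, also had the lowest summed intensity of 6 markers of injured tubule (6575, against 10915 and 11958 on the other arrays of that group). That array had the lowest value of its group for 4 of the 8 genes, but the highest for Saa1 (4.84), Saa3 (4.87) and Pzp (8.69). A link between these levels and the injury markers was not tested.

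Serpina3n encodes a secreted inhibitor of serine proteases such as granzyme B and cathepsin G. Healthy control mice had values of 6.09, 6.39 and 6.2, and injured control mice 8.18, 8.64 and 8.90. In GR-deficient mice the values were 5.77, 5.90 and 5.97 without and 7.08, 6.94 and 6.90 with injury. All 4 groups were separate, in the order injured control, injured GR-deficient, healthy control and healthy GR-deficient. The rise was 2.35 ± 0.15 in control mice (5.08-fold, adjusted p = 7.15e-08) and 1.09 ± 0.15 in GR-deficient mice (2.12-fold, adjusted p = 0.00132), 46.3% of the control difference on the log2 scale. In AKI, Serpina3n was lower by 1.60 ± 0.15 with GR deficiency (3.03-fold, adjusted p = 8.14e-06). The interaction was -1.26 ± 0.22 (adjusted p = 0.00177). In healthy mice the difference of -0.34 ± 0.15 did not pass (adjusted p = 0.448). Of 10 listed relatives in the Serpina3 cluster, only Serpina3a and Serpina3b had a probe set of their own, and neither passed in any of the 5 comparisons, with differences of 0.28 and 0.21 after AKI in control mice.

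Pzp, an alpha-2-macroglobulin type inhibitor that traps many classes of protease, moved the opposite way. It measured 11.24, 11.16 and 11.14 in healthy and 8.90, 9.16 and 9.26 in injured control mice. In GR-deficient mice it measured 9.59, 10.39 and 10.68 when healthy and 8.65, 8.64 and 8.69 with AKI. No 2 groups overlapped, and the order was healthy control, healthy GR-deficient, injured control and injured GR-deficient mice. Pzp fell by 2.07 ± 0.20 with AKI in control mice (4.21-fold, adjusted p = 2.04e-06) and by 1.56 ± 0.20 in GR-deficient mice (2.95-fold, adjusted p = 0.000685). Among all genes the latter was the sixth largest decrease in GR-deficient mice, and the interaction of 0.51 ± 0.28 did not pass (adjusted p = 0.300, 95% interval -0.094 to 1.12). In healthy mice Pzp was -0.96 ± 0.20 with GR deficiency (adjusted p = 0.0803), a value that passed without both arrays that stood apart (-0.65, adjusted p = 0.0386) and without GR-deficient healthy replicate 3 (-1.19, adjusted p = 0.0249). In AKI the difference was -0.45 ± 0.20 (adjusted p = 0.160), and it passed when both arrays that stood apart were left out (-0.55, adjusted p = 0.00206), without GR-deficient healthy replicate 1 alone (adjusted p = 0.0129), with array weights (-0.51, adjusted p = 0.00181) and in a fit of the injured groups alone (adjusted p = 0.0409).

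Ceruloplasmin is the copper-carrying plasma ferroxidase, which helps load iron onto transferrin. Cp gave 9.13, 9.0 and 9.12 in healthy and 9.94, 10.49 and 10.62 in injured control mice. With GR deficiency it gave 9.55, 9.48 and 9.34 in healthy and 10.38, 10.32 and 10.29 in injured mice. The injured groups overlapped each other and lay above both healthy groups, which did not overlap. Cp rose by 1.27 ± 0.14 in control mice (2.41-fold, adjusted p = 9.62e-06) and by 0.87 ± 0.14 in GR-deficient mice (1.83-fold, adjusted p = 0.00391). Between the injured genotypes the difference was -0.024 ± 0.14 (adjusted p = 0.938, 95% interval -0.33 to 0.29). The interaction of -0.40 ± 0.20 did not pass (adjusted p = 0.264, 95% interval -0.84 to 0.042), but it was -0.60 and passed without control AKI replicate 1 (adjusted p = 0.0116), -0.55 without both arrays that stood apart (adjusted p = 0.0169) and -0.52 with array weights (adjusted p = 0.00549).

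Haptoglobin binds hemoglobin set free from red cells. Hp measured 5.83, 6.82 and 5.86 in healthy and 6.77, 7.06 and 7.27 in injured control mice, so the groups overlapped through 1 healthy array. GR-deficient mice gave 6.74, 6.45 and 6.54 when healthy and 6.59, 7.10 and 6.28 with AKI, and each neighbouring pair in the order of the 4 groups overlapped. Hp rose by 0.86 ± 0.25 in control mice (1.82-fold, adjusted p = 0.0156), a call lost without control AKI replicate 3 (adjusted p = 0.0608) or healthy control replicates 1 or 3 (0.082 and 0.0791). In GR-deficient mice the difference was 0.083 ± 0.25 (adjusted p = 0.905), and the interaction of -0.78 ± 0.35 (adjusted p = 0.189, 95% interval -1.53 to -0.031) passed without healthy control replicate 2 (-1.10, adjusted p = 0.0234).

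**Figure D2:**
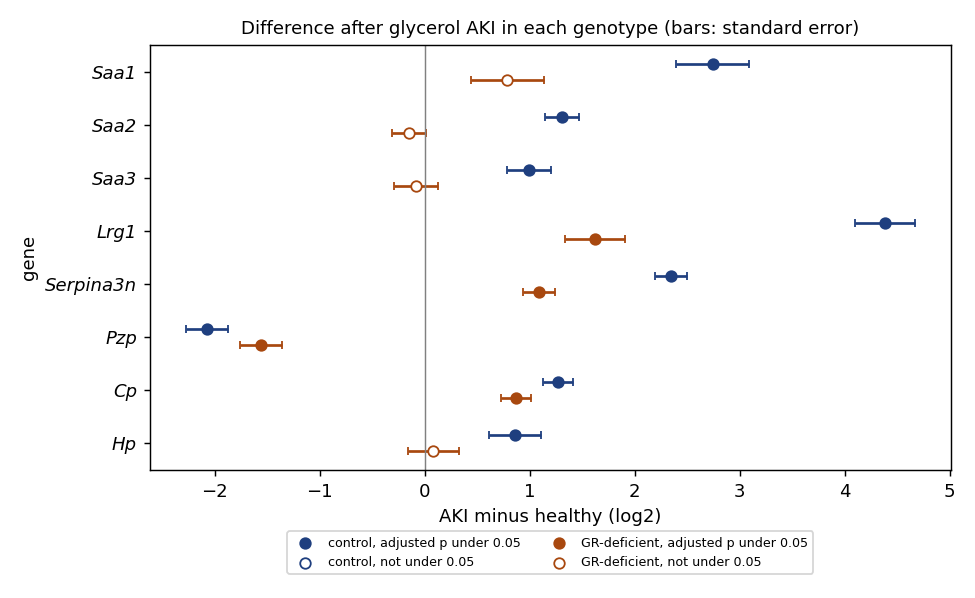
AKI minus healthy on the log2 scale for the 8 genes in control (blue) and GR-deficient (orange) mice, with standard errors as bars; filled points passed an adjusted p of 0.05 over all genes and open points did not. Lrg1 shows the widest gap between the genotypes (4.39 and 1.62), while Pzp (-2.07 and -1.56) and Cp (1.27 and 0.87) lie closer together.

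**Figure D3:**
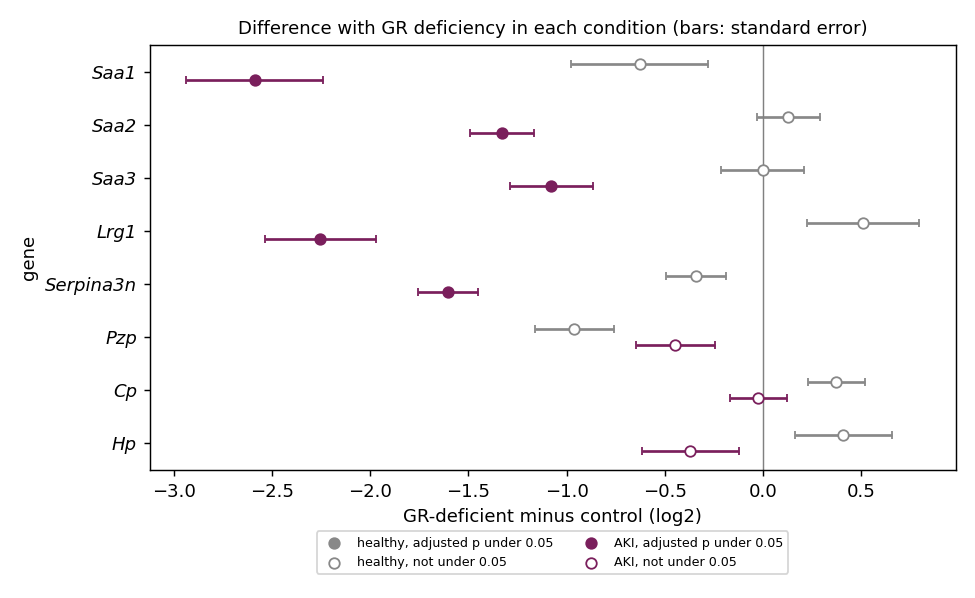
GR-deficient minus control on the log2 scale for the 8 genes in healthy (grey) and injured (purple) mice, with standard errors as bars; filled points passed an adjusted p of 0.05 over all genes. In AKI, 5 genes are lower, from -1.08 (Saa3) to -2.59 (Saa1), and in healthy mice all 8 points are open.

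Other acute phase genes did not move as a block. Beside the list counts that follow, 13.6% of all genes rose and 15.1% fell with AKI in control mice. In GR-deficient mice 3.29% of all genes rose and 1.35% fell. Of 18 measured members of a list of further positive acute phase proteins, 5 rose and 2 fell with AKI in control mice (list median 0.15), and 2 rose in GR-deficient mice (1 without GR-deficient healthy replicate 1). The fibrinogen chain genes Fgb (6.43 and 2.05 in control and GR-deficient mice), Fga (4.42 and 1.12) and Fgg (6.16 and 1.24) all had a negative interaction, from -4.92 to -3.30. In GR-deficient mice the differences of Fga and Fgg did not pass, and the injured arrays varied widely for Fgg (8.25, 11.09 and 8.91). Saa4, the serum amyloid A gene known as constitutive, rose in both genotypes, by 2.02 ± 0.33 (adjusted p = 0.000243) in control and by 1.501 ± 0.33 (adjusted p = 0.0177) in GR-deficient mice. Its arrays gave 6.56, 7.29 and 8.22 in injured control and 7.67, 6.58 and 7.03 in injured GR-deficient mice. These overlapped, unlike those of Saa1, Saa2 and Saa3, and the interaction of -0.52 ± 0.46 did not pass (adjusted p = 0.562); whether Saa4 differs from its relatives in this was not tested. Serpina1d, an alpha-1-antitrypsin gene, fell by 1.25 with AKI in control mice and had a difference of -0.18 in GR-deficient mice. Its positive interaction (1.07, adjusted p = 0.0273) no longer passed without GR-deficient healthy replicate 1 or without both arrays that stood apart. For Itih4, an inter-alpha-trypsin inhibitor heavy chain, neither AKI difference passed (0.068 and -0.28).

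Genes of negative acute phase proteins, which the liver makes less of in inflammation, were mostly not lower. Of 9 measured, 4 rose and 1 fell in control mice, and 3 rose and 1 fell in GR-deficient mice (list medians 0.31 and 0.15). Ttr, which encodes the thyroid hormone carrier transthyretin, fell by 3.10 ± 0.18 in control mice (adjusted p = 3.51e-08) and by 2.03 ± 0.18 in GR-deficient mice (adjusted p = 6e-05), with an interaction of 1.07 (adjusted p = 0.0141). Rbp4, the retinol carrier that travels with transthyretin, rose by 1.11 and 1.05, and the iron carrier Trf by 0.56 and 0.66. Apoa1 rose in control mice (0.57) and had a negative interaction (-0.66, adjusted p = 0.0292), which no longer passed without GR-deficient healthy replicate 1. Ahsg and Serpina6 did not pass in any of the 5 comparisons.

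Signals and factors that induce acute phase genes, a list that also holds feedback inhibitors such as Socs3, were mostly higher with AKI in control mice. Of 24 measured, 15 rose and 2 fell with AKI in control mice (median 0.86), and 3 rose in GR-deficient mice (median 0.21), or 5 without control AKI replicate 1. In AKI, 14 were lower and 2 higher with GR deficiency, beside 7.34% and 10% of all genes. Of the interactions, 11 were negative and 1 positive, beside 4.06% and 7.39% of all genes. Clcf1, a cytokine of the IL-6 family, rose by 2.08 ± 0.13 in control mice and differed by 0.45 ± 0.13 in GR-deficient mice (interaction -1.63, adjusted p = 0.000123). The related cytokine Lif rose by 1.61 and 0.60 (interaction -1.01), and the receptor chain Osmr by 2.04 and 1.02 (interaction -1.02). Socs3, the feedback inhibitor that STAT3 induces, rose by 2.26 in control mice against 0.66 in GR-deficient mice, where it did not pass (interaction -1.61, adjusted p = 0.00254). Cebpb, a C/EBP factor, rose by 1.56 in control mice against 0.15 (interaction -1.41), whereas the nephron and liver factor Hnf4a fell by 1.52 in control mice against -0.073 (interaction 1.44). A further 3 genes were chosen after their values were seen. Il6 rose by 2.03 and Stat3 by 1.66 in control mice, with negative interactions (-1.47, adjusted p = 0.013, and -1.01, adjusted p = 0.0266), and the NF-kB cofactor Bcl3 rose in both genotypes (1.66 and 1.32).

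**Figure D4:**
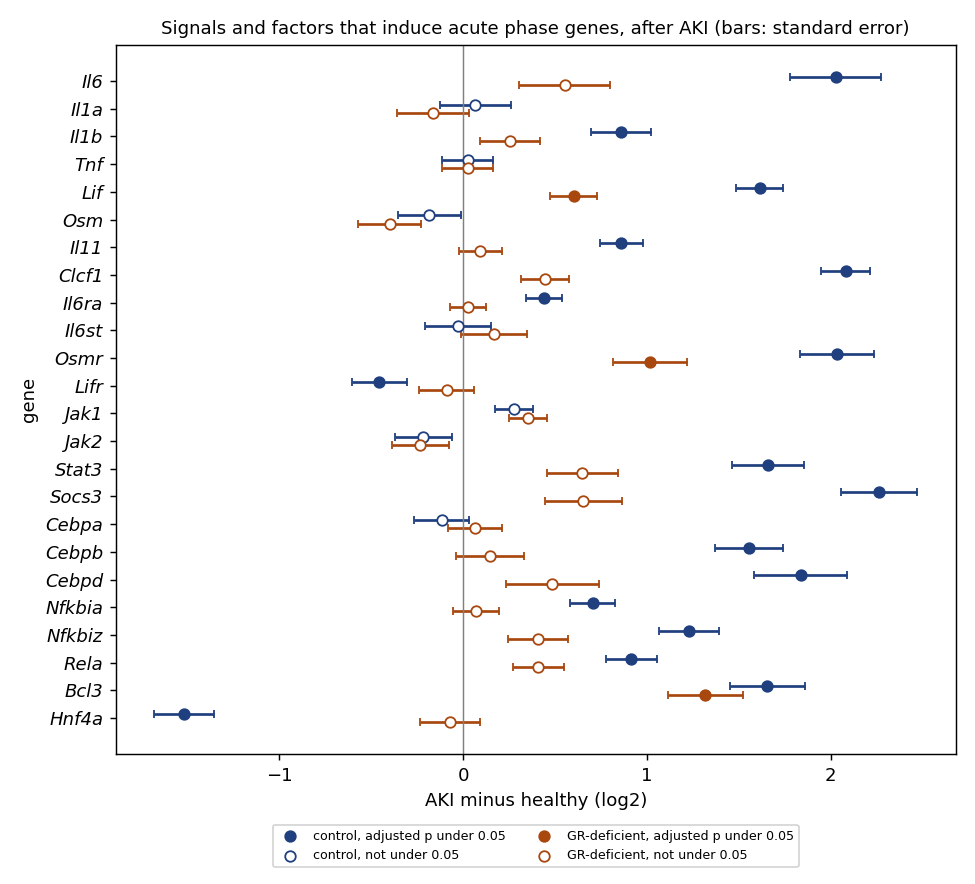
AKI minus healthy on the log2 scale for 24 genes in control (blue) and GR-deficient (orange) mice, with standard errors as bars. The genes are signals and factors that induce acute phase genes, together with feedback inhibitors such as Socs3. Filled points passed an adjusted p of 0.05 over all genes and open points did not. In control mice 15 genes rose and 2 fell, Lifr and Hnf4a, while 3 filled points, Lif, Osmr and Bcl3, lie to the right in GR-deficient mice.

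Among receptors and partners of acute phase proteins, 6 of 15 measured rose and 4 fell in control mice (median 0.11), and 2 rose in GR-deficient mice, where 2 also fell without control AKI replicate 1. Lrp2 (-1.39) and Cubn (-1.53), the megalin and cubilin receptors that take up filtered proteins in the proximal tubule, fell in control mice, with differences of -0.024 and 0.044 in GR-deficient mice and positive interactions (1.36 and 1.57). Lrp1 (0.68), which clears protease complexes of the alpha-2-macroglobulin type, rose in control mice, and so did Tgfbr1 (0.85) and Tgfbr2 (0.46), the TGF-beta receptors. Lrp1 and Tgfbr1 had negative interactions (-0.68 and -0.81), and that of Tgfbr2 (-0.27) did not pass. Tlr2, a receptor reported to bind serum amyloid A, did not pass in any comparison.

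Marker lists of other cell types differed in how many of their genes passed. Of all genes, 13.6% rose with AKI in control mice. In GR-deficient mice 3.29% rose and 4.64% passed in either direction, so 0 of a short list there is near these shares. For neutrophils, 7 of 13 markers rose with AKI in control mice and 0 in GR-deficient mice. Their summed unlogged intensity was 1036 to 1321 in injured and 574 to 657 in healthy control mice, and 608 to 751 and 600 to 646 in injured and healthy GR-deficient mice. The granule genes Mpo, Elane and Ltf and the surface marker Ly6g were not among those that rose. For macrophages, 2 of 11 rose (Cd68 and Itgam) and 1 fell (Csf1r) in control mice, with a list median of -0.071. Sums were 2696 to 3202 against 2028 to 2323, a rise that came largely from Cd68 (mean 10.15 against 7.30). In GR-deficient mice 1 rose (Cd68), with sums of 2056 to 2631 against 1951 to 2307. For endothelium, 3 of 6 rose (Pecam1, Cdh5 and Flt1) and 2 fell (Kdr and Tek) in control mice, with sums of 3513 to 4552 against 4041 to 4258. In GR-deficient mice 0 of the 6 passed, or 1, which fell, after quantile or cyclic loess normalization and without GR-deficient healthy replicate 1, with sums of 4163 to 4243 against 3721 to 4255. With GR deficiency in AKI, Kdr and Tek were higher and Cdh5 and Flt1 lower. Of 5 adipocyte markers 0 passed in either genotype, although 1 rose in control mice without control AKI replicate 1.

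Hepatocyte markers had 1 of 8 rising in control mice, Apoa1, and sums of 2123 to 2487 with AKI against 1689 to 2343. Apob, with means of 10.48 and 10.26, made up most of these sums. In GR-deficient mice 0 rose and 1 fell, with sums of 2662 to 3040 against 2662 to 2940. Cyp3a11, a defining liver enzyme, averaged 3.02 in injured and 2.95 in healthy control mice, near the bottom of the scale. In the same groups Cps1 averaged 5.59 and 5.57, Ahsg 5.70 and 5.39, and Tat 5.83 and 5.81. Higher averages were those of Alb (7.91 and 7.72), Apoh (8.23 and 8.27) and Apoa1 (7.39 and 6.81). Of 8 proximal tubule markers all fell in control mice, with sums of 30970 to 36791 against 72317 to 74155, and 2 fell in GR-deficient mice (sums of 53467 to 58251 against 59954 to 70193; 4 fell after cyclic loess and 1 without GR-deficient healthy replicate 1). Of 6 injured tubule markers 5 rose in control and 4 in GR-deficient mice, with sums of 29597 to 31364 and 6575 to 11958 with AKI. The part of these cell types in the acute phase results was not tested.

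The genes with the most similar pattern over the 12 arrays differed from member to member. These Pearson correlations describe 12 arrays in 4 groups whose means differ, and carry no test. Lrg1 was most like Cd14 (r = 0.994), a co-receptor for bacterial lipopolysaccharide, Sting1 (0.990), a sensor adaptor, and Pinx1 (0.989). Serpina3n was closest to Tlcd3a (0.993), Tmem184b (0.989) and Lrrc32 (0.986), and Saa1 to St3gal1 (0.978), Tbc1d8 (0.973) and Cpeb1 (0.966). Saa2 followed Nxph1 (0.970), Mapk13 (0.960) and the cytokine gene Il11 (0.956), while Saa3 followed Ppl (0.952), F13a1 (0.949) and Fam53a (0.947). Pzp was most like the organic anion transporter gene Slco1a1 (0.990), Atp11a (0.989) and Brap (0.986). The nearest genes to Cp were the glutathione transferase genes Gsto1 (0.979) and Mgst1 (0.971) with Gmds (0.972) between them. Hp had the loosest matches, Aplf (0.909), Cdc42ep1 (0.886) and Cxcl5 (0.877).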

How the data were processed

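RNA from renal cortex was amplified, biotin-labelled and hybridised to 12 Affymetrix arrays, per the labels' protocols. The submitters' processing notes name RMA, affy and oligo, without versions, for the log2 values that the authors deposited. The file does not state its log base; array maxima of 14.7 to 14.9 fall in the range of a log2 scale. No normalization was added.

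Of 35556 probe sets, 21789 had exactly 1 gene symbol (1621 had several and 12146 none); 21698 of these matched a RefSeq gene ID and 0 symbols changed. For 999 genes with several probe sets, the one with the highest mean over 12 arrays was kept, leaving 19938 genes. R 4.3.3 with limma 3.58.1 fitted 4 group means without a block (8 residual and 6.26 prior degrees of freedom), giving 5 two-sided comparisons adjusted over all genes. Tested on simulated data with 200 changed genes of 19938, this fit recovered 90% to 93% of changes of 1 on the log2 scale between 2 groups and 64% for the interaction.

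Each of the 8 genes is named. From the other lists up to 4 genes with the smallest p for AKI in control mice and up to 2 more for the interaction are named, and up to 3 most similar genes per member; genes outside the rule are said to be so. The genes and lists were chosen with earlier results of these data known. Alternatives were other normalization, filtering, probe sets, variance prior, array weights, a replicate block, the compared groups alone and leaving out each array.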

Additional observations from a re-analysis of the deposited data

Results flagged for a closer look

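For 5 of the 8 genes the difference with AKI itself differed between GR-deficient and control mice in the limma interaction test. Of all genes, 11.5% passed that test, 4.06% with a negative value. The interaction was -2.76 for Lrg1 (adjusted p = 0.000589), -1.96 for Saa1 (adjusted p = 0.0182), -1.46 for Saa2 (adjusted p = 0.000973), -1.07 for Saa3 (adjusted p = 0.029) and -1.26 for Serpina3n (adjusted p = 0.00177). Saa3 had the largest of these p-values and Saa1 the next. In alternative settings the Saa3 interaction passed in 11 of 20 and the Saa1 interaction in 18 of 20.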

How the results depend on the processing

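Of 857 recomputed differences of single genes, 820 kept their direction and their side of the threshold, 14 lost the threshold, 13 gained it and 10 turned sign. All 10 turns were of differences that had not passed. Without 1 array, Saa2 with GR deficiency in healthy mice ranged from -0.00014 to 0.32, Saa3 from -0.037 to 0.024 (0.0031 after quantile normalization), and Cp with GR deficiency in AKI from -0.23 to 0.11. With AKI in GR-deficient mice, Saa3 ranged from -0.26 to 0.0035 and Hp from -0.14 to 0.27.

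The number of the 8 genes that passed changed as follows. The filter on dim genes removed Saa1, Saa2 and Saa3, leaving 5 genes, of which 5 passed for AKI in control mice, 2 for GR deficiency in AKI and 2 for the interaction. With GR deficiency in healthy mice 1 gene, Pzp, passed after cyclic loess, with a robust trended prior, with array weights, and without both arrays that stood apart, an alternative chosen after seeing the data. With GR deficiency in AKI 6 passed, Pzp being the sixth, with array weights, in the fit of the injured groups alone and without both arrays that stood apart. For the interaction 3 passed when all probe sets were tested (Saa1 and Saa3 did not), and 6 with array weights (Cp was added). Without 1 array the count was 7 to 8 for AKI in control mice, 4 in each case for AKI in GR-deficient mice, 0 to 1 for GR deficiency in healthy mice, 5 to 6 for GR deficiency in AKI and 3 to 6 for the interaction, the 3 being without healthy control replicate 1. The causes were not tested.

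The replicate block changed none of these counts (8, 4, 0, 5 and 5). Between arrays with the same number, 3 of 18 correlations of deviations from group means were over 0.1 (range -0.41 to 0.25). Pairs of unlike number were not compared, and whether equal numbers mark a shared batch was not tested.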
